A study of Mus musculus with 10 samples.

Results

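High-fat feeding was compared with low-fat feeding in the subcutaneous fat of wild-type mice. The comparison used 4 of the 10 libraries of the series, 2 from each diet. It covered 15385 of the 30319 gene symbols in the deposited table, those that reached 1 TPM, a share of all transcripts corrected for their length, in 2 or more of these 4 libraries. Total RNA had been taken from the inguinal mammary fat pads of female FVB mice, an inbred strain, depleted of ribosomal RNA and sequenced. Group WT_LFD (n = 2) held wild-type mice on a diet with 10% of calories from fat, and group WT_HFD (n = 2) held wild-type mice on a diet with 60% of calories from fat. The diets matched in their ingredients, and all groups were fed between 12 and 30 weeks of age. The other 6 libraries, 3 on each diet (Null_LFD and Null_HFD), came from female FVB mice labelled FAP-/-, for fibroblast activation protein, a cell surface protease of activated fibroblasts, and are called null pads after that label. The Fap transcript was nevertheless listed in all of them, at 18.4, 22.4 and 18.3 TPM on the low-fat and 26.7, 38.4 and 22.3 TPM on the high-fat diet. The 4 wild-type libraries held 37.7 to 68.8 TPM, so Null_HFD 2 lay above WT_HFD 2. Which part of the gene is missing is not known here, so this level neither bears out nor refutes the label, and each direction given for null pads rests on it. They lent their spread to the test and are given side by side with the wild-type values. The series describes the libraries as biological replicates.

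White fat stores triglyceride made from fatty acids that arrive in the blood or that adipocytes make themselves from glucose. The transcription factor SREBP-1c, encoded with its sister isoform by Srebf1, and its partner ChREBP drive the genes of fatty acid synthesis, and SREBP-2, encoded by Srebf2, drives those of cholesterol synthesis and uptake. INSIG1, itself a target of these factors, holds them in the endoplasmic reticulum when sterols are plentiful. In obesity, white fat is known for larger adipocytes, lipid-laden macrophages and remodelling of the extracellular matrix. The mammary fat pad also holds milk duct epithelium and a lymph node, and a whole pad is a mixture in which fewer cells of a type and less RNA per cell cannot be told apart.

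The adipocyte identity of the tissue was plain in every wild-type library. Adipoq, the adipocyte hormone adiponectin, measured 1772 and 3206 TPM on the low-fat diet and 2665 and 1398 TPM on the high-fat diet, with the libraries of the diets overlapping. The 15 mature adipocyte markers had a median difference of 0.01 on the log2(TPM + 1) scale on which all differences below are given, always high-fat minus low-fat. WT_HFD 2 stood apart. Its B cell markers summed to 536 TPM, against 10.9 to 15.1 TPM in the other 3 wild-type libraries. Its T cell markers summed to 509 TPM, against 42.7 TPM in WT_HFD 1 and 25.4 and 19.4 TPM in the low-fat libraries. Without WT_HFD 2 the T cell median was 0.63, and WT_HFD 1 lay above both low-fat libraries for 8 of 10 markers, against 44.9% of all genes. Leaving out WT_HFD 2 thus did not level the T cell markers. Glycam1, an adhesion ligand of lymph node venules, was listed at 674 TPM in WT_HFD 2 and at 0, 0.272 and 0 TPM in the other wild-type libraries. Skeletal muscle markers summed to 377 TPM in WT_HFD 2 against 2855 to 4196 TPM elsewhere. Of the null libraries, Null_HFD 3 had the same features. Results are therefore given with WT_HFD 2 and, where the list moves with it, without it. The part of lymph node and muscle RNA in a result was not tested except where the value without the library is given.

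**Figure D1:**
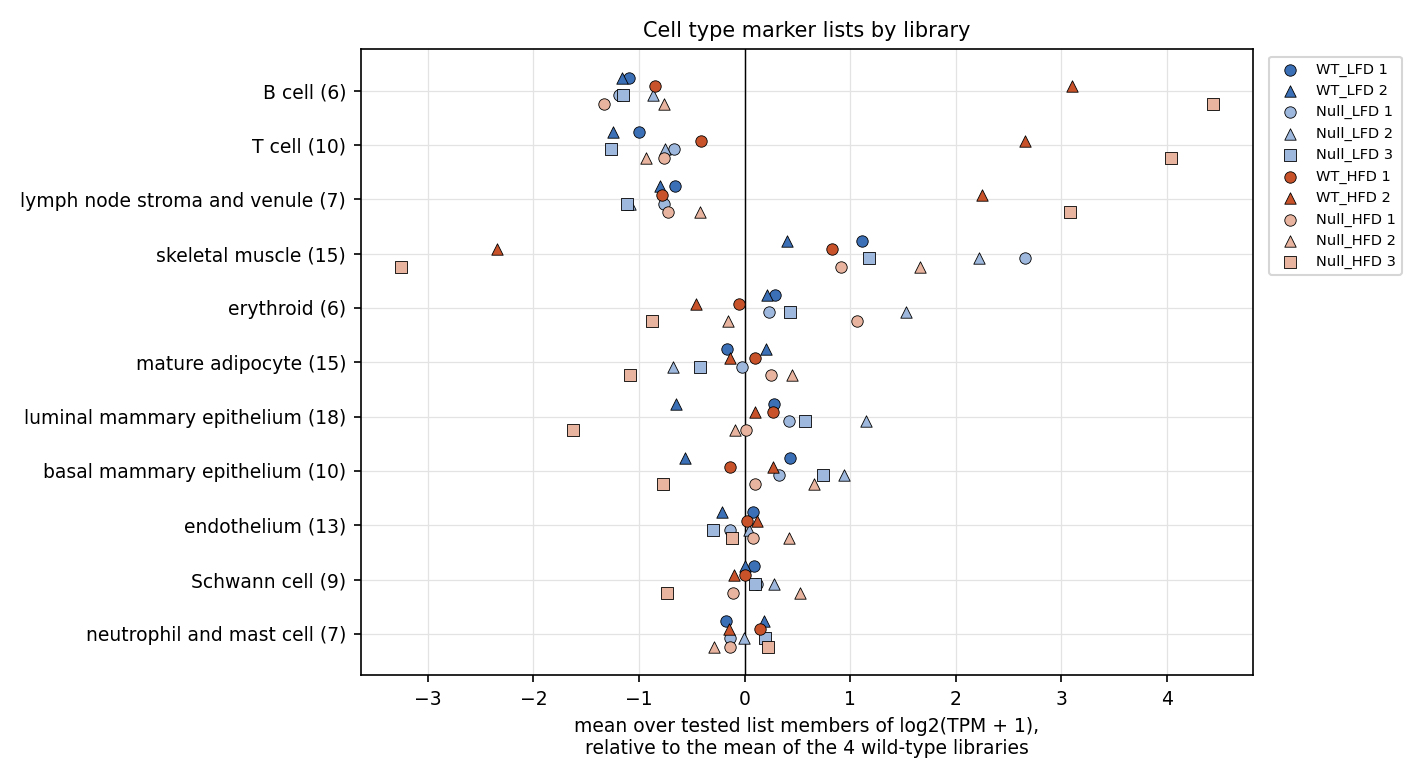
Mean log2(TPM + 1) of the tested members of each cell type marker list (number in brackets), relative to the mean of the 4 wild-type libraries, for all 10 libraries. Points are single libraries, coloured by genotype and diet. WT_HFD 2 lay at 3.10 for B cell and -2.34 for skeletal muscle markers, while the adipocyte markers of the wild-type libraries lay between -0.17 and 0.21.

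No gene passed the test across all genes, limma with Benjamini-Hochberg adjustment at a threshold of 0.05, so 0% were called and the lowest adjusted p was 0.242. At an unadjusted p under 0.05 there were 940 genes, 713 higher and 227 lower on the high-fat diet, where 769 are expected among 15385 tests. With 2 libraries against 2, a two-sided exact permutation test of a single gene cannot go below p = 0.333. The values below are therefore descriptions of these libraries, and paired values set against each other give the low-fat libraries 1 and 2 first and then the high-fat libraries 1 and 2. A gene is called separated when both high-fat libraries lay above, or both below, the low-fat libraries. Of all genes, 35.1% were separated with the high-fat diet higher and 11.8% with it lower, and 5.31% and 1.42% were also at least 2-fold apart. The median difference over all genes was 0.20, and after median-of-ratios scaling, which moved it to 0.01, the separated shares were 22.4% and 21.9%. A gene that was higher by about this median therefore did not stand out, and lower genes stood out more. The test of whether the diet difference depended on genotype called 0% of genes (lowest adjusted p = 0.215, limma, with 666 genes at an unadjusted p under 0.05).

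Genes of cholesterol synthesis and uptake were lower on the high-fat diet. Of the 24 genes listed, 23 were measured above the filter, and 21 of these 23 were lower in the mean. None was separated with the high-fat diet higher, and 15 were separated with it lower, against 11.8% of all genes. Also at least 2-fold apart and lower were 11, against 1.42% of all genes. Their median difference was -0.96 against 0.20 over all genes.

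Insig1, the sterol-sensing anchor, had the largest difference of the list. It measured 545 and 390.3 TPM in the low-fat libraries and 133 and 54.1 TPM in the high-fat libraries, 5.01-fold less in the mean (difference -2.43, SE 0.53). Its gene lies on the plus strand of chromosome 5 at 28071363 to 28078662 (GRCm38). Msmo1, the sterol methyl oxidase of chromosome 8, was even within each diet, with 45.8 and 42.7 TPM against 12.9 and 18.7 TPM (difference -1.45, SE 0.35). For both genes every high-fat library lay well below every low-fat library.

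The enzymes named next followed the same order, but Idi1, Sqle, Cyp51 and Sc5d were picked after their values were seen. Acat2, which joins acetyl units at its start, measured 149.8 and 72.3 TPM against 42.9 and 22.5 TPM, and Hmgcs1, the HMG-CoA synthase, 136 and 199 TPM against 120.0 and 59.2 TPM. Idi1, which isomerises the isoprene unit, measured 45.4 and 21.3 TPM against 14.2 and 13.3 TPM. Sqle, the squalene epoxidase, measured 27.3 and 12.1 TPM against 8.46 and 8.48 TPM. The later ring-modifying enzymes Cyp51 (27.5 and 17.5 against 8.51 and 8.26 TPM), Nsdhl (56.6 and 27.9 against 16.1 and 10.9 TPM) and Sc5d (145 and 114 against 76.8 and 49.8 TPM) were also separated. Srebf2 itself overlapped, at 12.6 and 9.01 TPM against 8.55 and 12.7 TPM.

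The sterol genes were also lower without WT_HFD 2. Without it the median of the list was -0.66, against 0.11 over all genes, and the remaining high-fat library lay below both low-fat libraries for 19 of 23 members, against 23.6% of all genes. The differences of Insig1 and Msmo1 were then -1.79 and -1.70. WT_LFD 1 had the higher values for most enzymes, and without it the median was -0.47. In Fap-null pads the median of the same 23 genes was 0.17. None of them was separated lower there, where only 4.46% of all genes were. There Msmo1 differed by 0.05. No member passed the interaction test (lowest adjusted p in the list 1, limma), so a difference between the genotypes was not shown.

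Upstream sequences of 4 separated sterol genes are shown because these genes were low together. They are the 250 bases before the RefSeq start site (GRCm38.p6), 5′ to 3′ on the strand of the gene, at chr13:119690101-119690350 (plus strand) for Hmgcs1, chrX:72918271-72918520 (plus strand) for Nsdhl, chr9:42264301-42264550 (minus strand) for Sc5d and chr17:12960726-12960975 (minus strand) for Acat2. Capitals mark CCAAT, the box bound by NF-Y, a known partner of SREBP, on either strand (ATTGG where it lies on the other strand). In Hmgcs1 they also mark the sterol regulatory element letters TCACNCCAC, searched on both strands. Acat2 is shown as the gene without a match to either, and no base lay in both motifs.
Hmgcs1: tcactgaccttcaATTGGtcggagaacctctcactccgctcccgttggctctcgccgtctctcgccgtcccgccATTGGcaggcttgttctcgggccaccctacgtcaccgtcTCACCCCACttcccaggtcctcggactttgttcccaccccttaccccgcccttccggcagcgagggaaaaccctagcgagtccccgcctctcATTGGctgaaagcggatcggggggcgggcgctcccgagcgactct
Nsdhl: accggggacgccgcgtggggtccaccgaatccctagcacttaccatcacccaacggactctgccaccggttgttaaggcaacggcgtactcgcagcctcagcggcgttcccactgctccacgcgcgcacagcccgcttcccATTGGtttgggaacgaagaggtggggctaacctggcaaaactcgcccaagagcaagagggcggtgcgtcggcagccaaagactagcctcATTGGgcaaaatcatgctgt
Sc5d: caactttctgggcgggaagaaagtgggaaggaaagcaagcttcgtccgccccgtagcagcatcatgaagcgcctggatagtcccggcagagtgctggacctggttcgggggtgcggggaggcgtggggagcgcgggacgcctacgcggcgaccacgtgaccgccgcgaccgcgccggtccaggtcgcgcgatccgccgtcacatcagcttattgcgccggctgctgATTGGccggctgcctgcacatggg
Acat2: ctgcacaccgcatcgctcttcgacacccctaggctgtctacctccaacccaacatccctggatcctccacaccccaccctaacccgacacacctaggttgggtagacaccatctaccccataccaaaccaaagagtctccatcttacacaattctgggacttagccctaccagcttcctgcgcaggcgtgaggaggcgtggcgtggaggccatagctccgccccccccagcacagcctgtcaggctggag

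Of the list, 16 genes had a RefSeq upstream sequence, and 15 of them held CCAAT on either strand in at least 1 window, all but Acat2. Among the genes tested that had such a sequence, 40.1% of 10528 did. In the fatty acid synthesis list 11 of 18 genes did. Counted by window, since a gene can have several start sites, 79.0% of the 19 sterol windows held it against 33.9% of all 32851. The sterol element letters were present in 1 of the 16 sterol genes, Hmgcs1, and in 1.21% of the genes tested. A RefSeq start can lie inside a longer gene model, as those of Msmo1 and of Acat2, shown above, do in GENCODE. A window can therefore hold transcribed bases, and the end of the Acat2 window overlaps the GENCODE gene. These are matches of letters in a short window and show neither binding nor its lack.

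**Figure D2:**
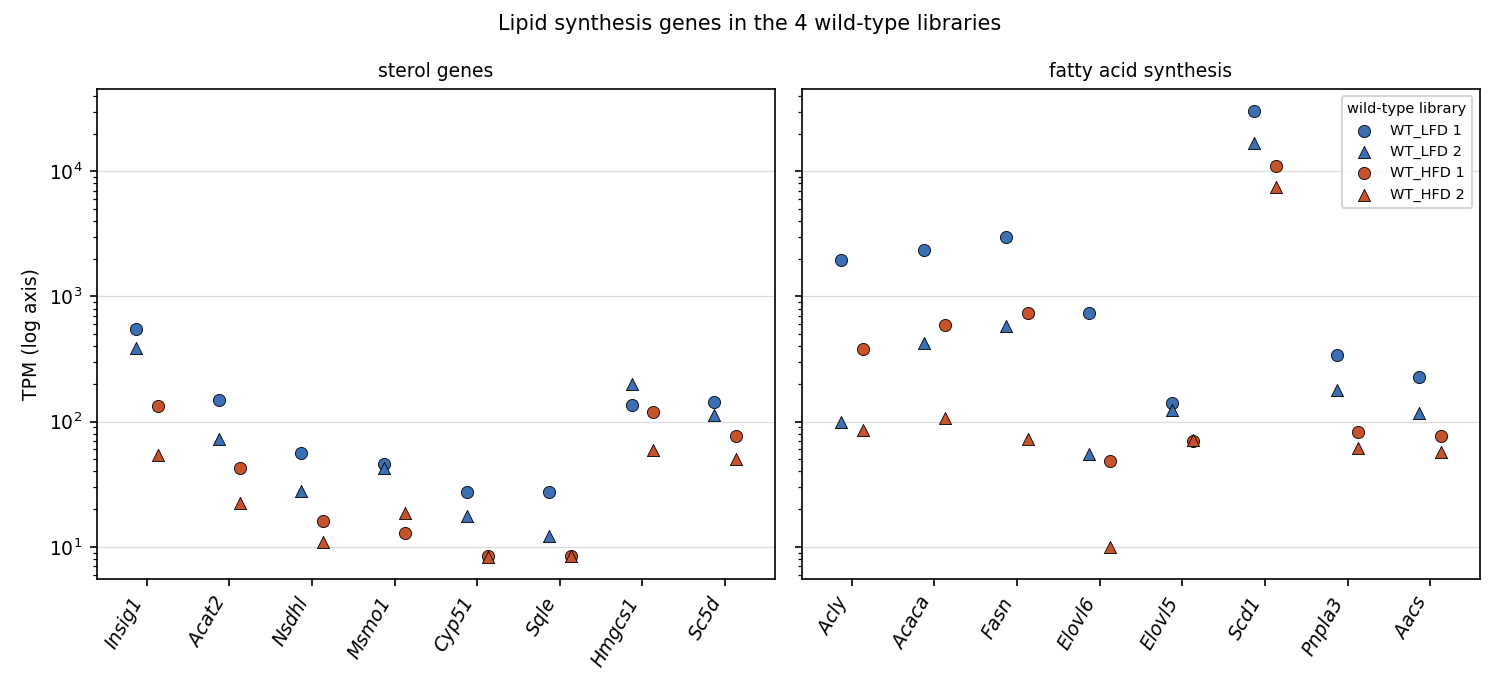
TPM of sterol genes (left) and fatty acid synthesis genes (right) in each wild-type library, on a log axis. Blue marks low-fat and orange high-fat libraries, with circles for replicate 1 and triangles for replicate 2. Insig1, Msmo1, Elovl5 and Pnpla3 show no overlap between diets, whereas Acly, Acaca and Fasn overlap.

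Fatty acid synthesis genes were lower as well, with much wider spread within each diet. All 22 listed genes passed the filter, 20 were lower in the mean, and 10 were separated with the high-fat diet lower, against 11.8% of all genes. Their median difference was -1.29. None was separated with the high-fat diet higher.

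The low-fat libraries differed from each other severalfold in the core of this pathway. Fasn, the fatty acid synthase, measured 3006 and 581 TPM on the low-fat diet and 741 and 72.5 TPM on the high-fat diet (difference -2.50, SE 1.06). Acaca, which makes the malonyl building block, measured 2369.6 and 426 TPM against 595 and 108 TPM. Acly, which supplies cytosolic acetyl-CoA from citrate, measured 1953 and 99.8 TPM against 381 and 86.5 TPM. In all 3 genes WT_HFD 1 lay between the low-fat libraries, so the groups overlapped although the means were far apart. Without WT_LFD 1 the difference of Acly was 0.86, in the other direction.

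Elovl6, Elovl5 and Scd1 were separated. Elovl6, which extends palmitate and lies on chromosome 3, measured 741 and 54.8 TPM against 48.8 and 10.0 TPM, and the gap between the nearest libraries was small beside the spread within the low-fat group. Elovl5, the elongase of polyunsaturated fatty acids, was even within each diet, with 141 and 123 TPM against 70.5 and 71.4 TPM (difference -0.88, SE 0.26). Scd1, the main desaturase of fat and among its most abundant transcripts, measured 30121 and 16660.1 TPM against 11107 and 7442 TPM. These genes shared an order in which both low-fat libraries lay above both high-fat libraries. Pnpla3, a lipid droplet enzyme driven by SREBP-1c, measured 341 and 179 TPM against 82.7 and 61.3 TPM, 3.61-fold less. Aacs, which makes acetoacetyl-CoA for lipid synthesis, measured 226 and 117 TPM against 77.1 and 57.0 TPM. Srebf1, the transcript of the factor itself, overlapped at 243 and 205 TPM against 281 and 187 TPM.

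Without WT_HFD 2 the median of the fatty acid list was -0.79. In Fap-null pads it was -0.89, with 10 of 22 genes separated lower there against 4.46% of all genes. Elovl6 differed by -3.25 and Fasn by -2.57 in null pads, beside -3.12 and -2.50 in wild type. Pnpla3 differed by 0.29 in null pads, with an interaction of -2.07 (SE 0.52, adjusted p = 0.911, limma) that did not pass.

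Triglyceride assembly was lower in the mean for 10 of 12 genes, 3 of them separated against 11.8% of all genes, and its median moved from -0.72 to -0.15 without WT_HFD 2. Agpat2, whose loss in people causes lack of fat, measured 1109 and 593 TPM against 425 and 138 TPM. Gpam, the first acyltransferase of the pathway, measured 139 and 186 TPM against 104 and 63.5 TPM. Dgat2, which adds the last fatty acid, overlapped at 1045 and 504 TPM against 648 and 175 TPM. Lpin2, a phosphatidate phosphatase, was the separated gene in the other direction, at 19.9 and 18.0 TPM against 23.6 and 38.0 TPM.

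Genes of lipid breakdown and of the droplet coat were mixed. Of 19 genes, 3 were separated higher and 4 lower, against 35.1% and 11.8% of all genes, and the median difference was -0.07. G0s2, an inhibitor of the lipase ATGL, was low on the high-fat diet at 265 and 307 TPM against 181 and 144 TPM, and so was Abhd5, an activator of the same lipase, at 222 and 219.5 TPM against 155 and 114 TPM. Plin1, the coat protein of the adipocyte droplet, overlapped at 127 and 60.3 TPM against 122 and 109 TPM. Among 12 uptake genes, Fabp5, a fatty acid binding protein, measured 445 and 152 TPM against 136 and 78.3 TPM. Cd36, the fatty acid translocase, measured 1407 and 1741 TPM against 1218 and 898 TPM. Partners of lipoprotein lipase were in the other direction, with Lmf1, its maturation factor, at 19.4 and 23.5 TPM against 30.3 and 29.0 TPM and Gpihbp1, its capillary anchor, at 96.3 and 101 TPM against 123 and 128 TPM.

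Mitochondrial genes were lower on the high-fat diet with small differences. All 26 tested nuclear genes of oxidative phosphorylation were lower in the mean, and 20 were separated, against 11.8% of all genes. Their median was -0.53, and -0.29 without WT_HFD 2. Without it 20 of 26 were still below both low-fat libraries, against 23.6% of all genes. Cycs, cytochrome c, measured 517 and 441 TPM against 344 and 152 TPM. Ndufb5, of complex I, measured 386 and 362 TPM against 285 and 183 TPM, and Ndufa1, of the same complex, 317 and 305 TPM against 211 and 182 TPM. Cox5a, of complex IV, measured 438 and 314 TPM against 268 and 199 TPM. In each of the 4 genes WT_HFD 2 was the lowest library and WT_HFD 1 also lay below the low-fat pair. The null median was -0.23, with 0 genes separated in either direction, against 6.73% higher and 4.46% lower of all genes there.

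Of 13 genes encoded by the mitochondrial genome, 12 passed the filter and 5 were separated lower, against 11.8% of all genes. Their median was -0.59, -0.24 without WT_HFD 2 and -0.05 with the level of lymphocyte markers as a covariate. All mitochondrial transcripts together made up 10.6% and 13.8% of TPM on the low-fat diet and 9.76% and 5.91% on the high-fat diet. mt-Co2, a subunit of complex IV, measured 1023 and 666 TPM against 251 and 277 TPM. mt-Nd3 measured 758 and 375 TPM against 305 and 0 TPM, and since it is abundant in every other wild-type library its listing at 0 in WT_HFD 2 may be a failed estimate, so no fold is given for it.

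Fatty acid oxidation genes lay in both directions. Of 20 genes, 7 were separated lower and 3 higher, against 11.8% and 35.1% of all genes. Their median was -0.36, -0.08 without WT_HFD 2 and 0.21 with the lymphocyte level as a covariate. The subunits of the mitochondrial trifunctional protein were lower, with Hadha at 428 and 369 TPM against 307 and 195 TPM and Hadhb at 867 and 769 TPM against 564 and 284 TPM. Cpt1a, which admits fatty acids to the mitochondrion, was higher at 21.7 and 26.7 TPM against 34.7 and 49.4 TPM.

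Thermogenic genes varied widely between libraries of the same diet. Ucp1, the uncoupling protein of brown and beige fat, measured 153 and 859.8 TPM on the low-fat diet and 266 and 3.69 TPM on the high-fat diet, with the lowest value in the lymph node-rich library. The median of 15 genes was -1.33 and -0.48 without WT_HFD 2. Separated lower were 5 genes, against 11.8% of all genes, among them Elovl3, a fatty acid elongase of beige fat (17.7 and 29.3 TPM against 5.23 and 0.653 TPM), and Cidea, a droplet protein (123 and 198 TPM against 94.4 and 18.8 TPM). Otop1, a proton channel, measured 13.6 and 15.5 TPM against 7.01 and 1.57 TPM. Kcnk3, a potassium channel, measured 22.5 and 18.7 TPM against 14.4 and 1.7 TPM. The coactivator Ppargc1b varied less, at 7.6 and 11.7 TPM against 4.08 and 3.82 TPM (difference -1.08, SE 0.39).

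**Figure D3:**
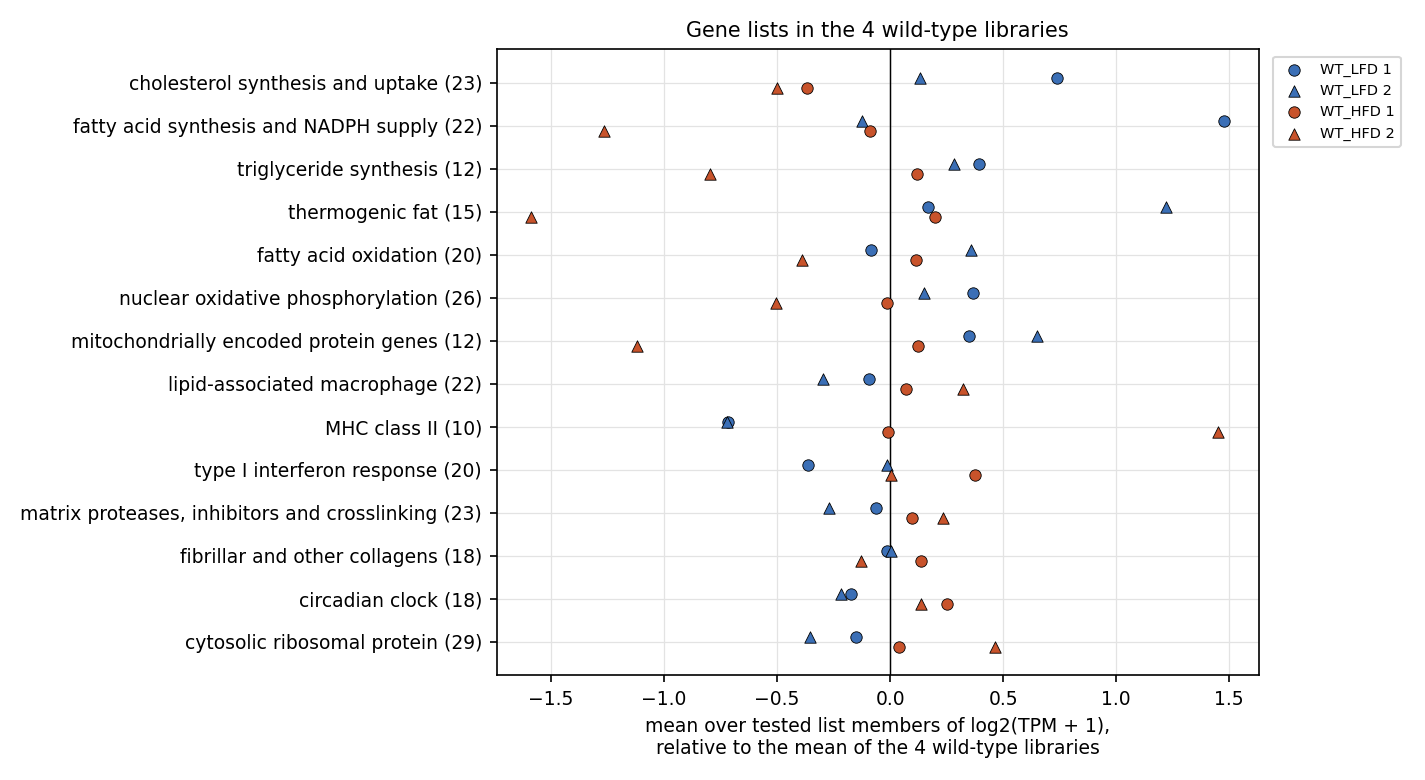
Mean log2(TPM + 1) of the tested members of 14 gene lists (number in brackets), relative to the mean of the 4 wild-type libraries. Points are single libraries, blue for low-fat and orange for high-fat. Both high-fat libraries lie below both low-fat libraries for cholesterol synthesis and nuclear oxidative phosphorylation, and above them for the lipid-associated macrophage list, while WT_HFD 2 sets the outer value for MHC class II and the thermogenic list.

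Most adipokines and markers of fat expansion overlapped between the diets in wild-type pads, where 5 of 20 were separated higher and 2 lower, against 35.1% and 11.8% of all genes. Lep, the satiety hormone leptin that follows fat mass, measured 387 and 507 TPM on the low-fat diet and 277 and 865 TPM on the high-fat diet, with the high-fat libraries on either side of the low-fat pair. In null pads Lep was separated, at 133, 342 and 346 TPM against 990.4, 1492 and 1192 TPM. Mest, an imprinted gene linked to adipocyte enlargement, measured 17.2 and 20.7 TPM against 19.7 and 8.66 TPM, so wild-type values overlapped, while the null difference was 2.54. Sfrp5, a secreted Wnt inhibitor, was high in WT_HFD 2 alone among the wild-type libraries (2.26 and 5.39 TPM against 3.04 and 59.9 TPM). In null pads Sfrp5 was separated higher, at 4.41, 5.26 and 3.40 TPM against 49.1, 96.8 and 31.2 TPM (difference 3.35). Interaction tests did not pass for Lep (-2.12, SE 0.76, adjusted p = 1) or Mest (-3.03, SE 0.64, adjusted p = 0.868, limma). Higher and separated were Npr3, the natriuretic peptide clearance receptor (164 and 159.5 TPM against 196 and 311 TPM), and Nnat, an imprinted gene of fat and brain (60.4 and 707 TPM against 1087 and 1299 TPM). Nnat differed widely between the low-fat libraries.

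Adipogenic transcription factors showed few differences. Pparg, the master regulator, measured 37.3 and 44.6 TPM against 40.4 and 39.7 TPM and lay within the low-fat range. Klf15, a glucocorticoid-responsive factor of fat, was lower at 15.5 and 14.2 TPM against 8.5 and 2.73 TPM. Nr1h3, the oxysterol receptor LXR alpha, was lower at 71.7 and 79.5 TPM against 58.3 and 49.3 TPM. Higher were Cebpd, an early factor of adipocyte differentiation, at 12.2 and 25.3 TPM against 30.5 and 60.9 TPM, and Stat5b, which signals for growth hormone and prolactin, at 21.7 and 20.6 TPM against 28.5 and 40.8 TPM. Of 17 such genes 6 were separated higher and 2 lower, close to the shares of all genes.

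Of 22 insulin signalling genes, 5 were separated in each direction, against 35.1% higher and 11.8% lower of all genes. Slc2a4, the insulin-responsive glucose transporter GLUT4, measured 213 and 90.7 TPM against 86.9 and 64.6 TPM. Slc2a1, the basal transporter GLUT1, lay in the other direction at 11.3 and 5.93 TPM against 15.5 and 16.0 TPM. Foxo1, a factor that insulin restrains, was higher at 13.7 and 14.3 TPM against 19.5 and 26.7 TPM and was separated in null pads too (difference 0.77 beside 0.67).

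Macrophage genes were higher on the high-fat diet for a part of the list. Of 22 genes of lipid-associated macrophages, the foam cell-like macrophages of obese fat, 12 were separated higher and 3 lower, against 35.1% and 11.8% of all genes, and after median-of-ratios scaling 9 and 6, against 22.4% and 21.9%. Their median was 0.47, and 0.28 after median-of-ratios scaling, against 0.20 and 0.01 for all genes. Spp1, the secreted matricellular protein osteopontin, measured 197 and 46.1 TPM on the low-fat diet and 767 and 827 TPM on the high-fat diet, 6.57-fold more in the mean (difference 3.05, SE 1.13). The Spp1 gene lies on the plus strand of chromosome 5 at 104435118 to 104441050. Both high-fat libraries were nearly equal, and without WT_HFD 2 the difference was 2.99. In null pads the Spp1 mean lay the other way with overlap, at 2926, 641 and 177 TPM against 396, 165 and 161 TPM, and the interaction did not pass (4.70, SE 1.46, adjusted p = 1, limma). Csn3, a casein gene of the milk duct epithelium, lay in the same directions, with differences of 1.88 in wild type and -2.12 in null pads. Which cells of the pad held the Spp1 transcript was not tested.

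Apoe, the lipoprotein of lipid-laden macrophages and adipocytes, measured 1269.5 and 1652 TPM against 2677 and 3101 TPM. Cd9, a tetraspanin of these cells, measured 69.9 and 62.0 TPM against 104 and 134 TPM. Cd68, a lysosomal marker of macrophages, measured 21.1 and 23.7 TPM against 26.8 and 59.0 TPM, with most of the excess in WT_HFD 2. Trem2, the lipid receptor that defines the cell state, overlapped at 4.08 and 2.39 TPM against 4.6 and 3.92 TPM. Ctsd, a lysosomal protease also made by adipocytes and epithelium, was lower at 1162 and 656 TPM against 495 and 487 TPM, as was Fabp5 above. The members of the list thus lay in both directions.

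Among 17 genes of resident and other macrophages, 8 were separated higher and 2 lower, against 35.1% and 11.8% of all genes. After median-of-ratios scaling 5 were separated in each direction and the median turned from 0.08 to -0.13. Csf1r, the growth factor receptor of macrophages, measured 52.9 and 48.6 TPM against 64.1 and 85.3 TPM. Mertk, a receptor for dying cells, measured 11.0 and 11.8 TPM against 17.5 and 26.5 TPM. Cd14, the coreceptor for bacterial lipopolysaccharide, measured 18.6 and 15.6 TPM against 43.0 and 44.7 TPM, with the high-fat libraries almost equal. In null pads Cd14 differed by -1.29 (interaction 2.60, SE 0.64, adjusted p = 0.911, limma).

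The list of chemokines, cytokines and acute phase genes lay in both directions. Of its 21 tested genes 7 were separated higher and 4 lower, against 35.1% and 11.8% of all genes, with a median of 0.44 and, without WT_HFD 2, 0.26. With the lymphocyte level as a covariate the median was -0.07. Lcn2, an iron-binding acute phase protein of adipocytes and epithelium, measured 116 and 47.1 TPM against 262 and 395 TPM (difference 2.11, SE 0.74), and -1.56 was its null difference. Saa1 and Saa2, serum amyloid A genes, were listed at 0 in both low-fat libraries. On the high-fat diet Saa1 measured 3.51 and 18.6 TPM and Saa2 2.17 and 7.14 TPM. Il1rn, the interleukin-1 receptor antagonist, measured 0.622 and 0.62 TPM against 5.93 and 2.48 TPM, and Fgg, the fibrinogen gamma chain, 4.5 and 4.84 TPM against 28.1 and 32.3 TPM. Saa1, Saa2 and Il1rn passed the filter through the high-fat libraries alone, so they could only count as separated higher. Ccl2, the chief monocyte chemokine of obese fat, was lower at 3.17 and 5.27 TPM against 2.56 and 2.22 TPM. Of 28 listed genes 7 stayed under the filter, Il6 and Il1b among them.

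**Figure D4:**
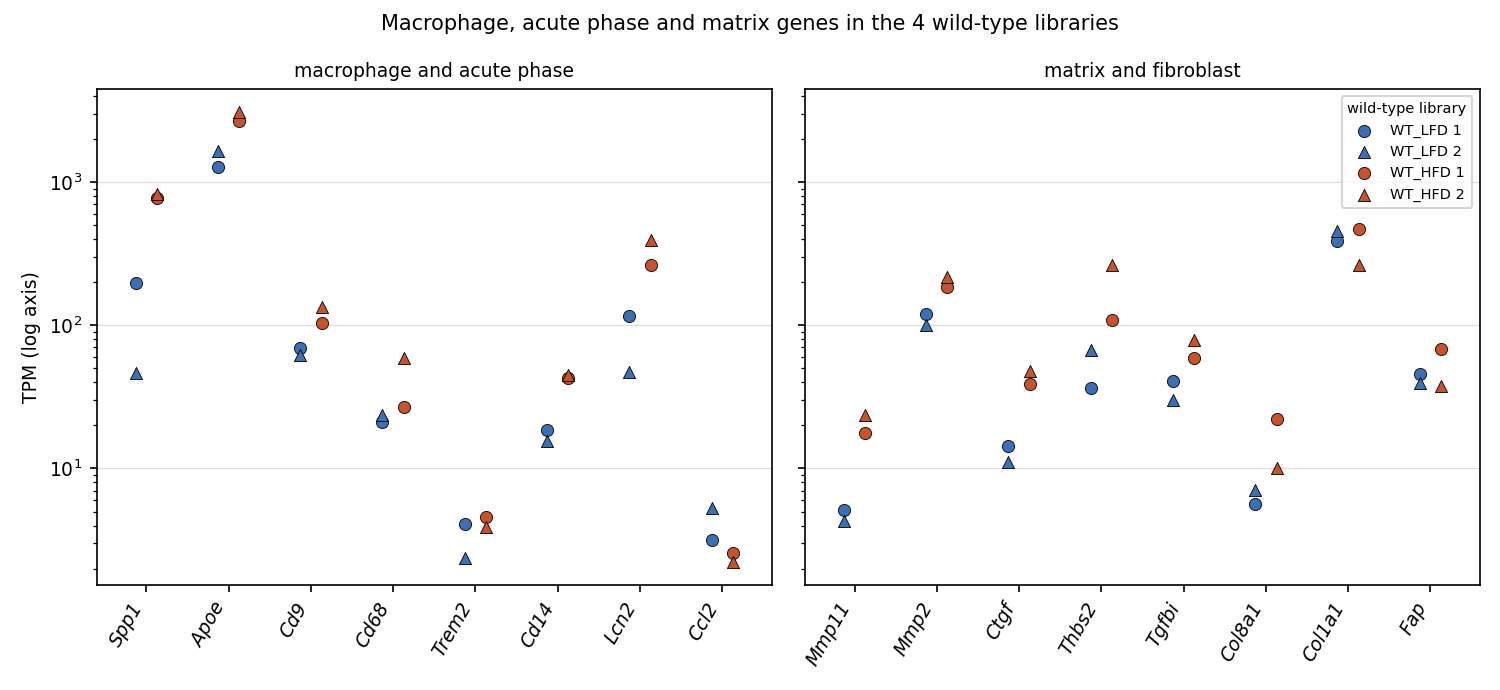
TPM of macrophage and acute phase genes (left) and of matrix and fibroblast genes (right) in each wild-type library, on a log axis. Blue marks low-fat and orange high-fat libraries. Spp1, Apoe, Cd14, Lcn2, Mmp11 and Ctgf lie higher in both high-fat libraries, whereas Trem2, Col1a1 and Fap overlap and Ccl2 lies lower.

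MHC class II genes, which present antigen, were higher in the mean for all 10 members, with a median of 1.51. Of these 8 were separated, against 35.1% of all genes. B cells carry these genes too, and WT_HFD 2 held the most B cell transcripts. Without that library the median was 0.75, and WT_HFD 1 still lay above both low-fat libraries for 8 of 10 genes, against 44.9% of all genes. Cd74, the invariant chain, measured 252 and 264 TPM against 542 and 1031 TPM. Ciita, the activator of the set, measured 2.97 and 2.5 TPM against 7.17 and 16.0 TPM, and H2-Eb1 measured 1.91 and 5.56 TPM against 9.32 and 13.5 TPM. In WT_HFD 1, the library without the lymph node signature, the B cell markers were also slightly above the low-fat level, summing to 15.1 TPM against 10.9 and 11.6 TPM. Its T cell markers summed to 42.7 TPM against 25.4 and 19.4 TPM. With the level of B and T cell markers as a covariate, the class II median was 0.36. The part of B cells alone was not tested.

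Type I interferon response genes were higher in the mean for 17 of 20 members, with 9 separated higher and none lower, against 35.1% and 11.8%. Their median was 0.41, and it was 0.56 without WT_HFD 2. WT_HFD 1 alone lay above both low-fat libraries for 15 of 20 genes, against 44.9% of all genes. After median-of-ratios scaling 4 were separated higher and none lower, against 22.4% and 21.9% of all genes, with a median of 0.22, so the higher count held only on the deposited scale. Bst2, a virus tether, measured 22.3 and 30.3 TPM against 41.0 and 38.2 TPM. Stat2, a transducer of the interferon signal, measured 8.52 and 7.41 TPM against 13.2 and 12.6 TPM, and Oas2, a sensor of viral RNA, 3.23 and 2.79 TPM against 4.72 and 5.97 TPM. The null median was 0.03.

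Collagens lay in both directions. Of 18 genes 4 were separated higher and 5 lower, against 35.1% and 11.8% of all genes, with a median of -0.09 against 0.20. Col1a1, the chief fibrillar chain, overlapped at 388 and 453 TPM against 473 and 262 TPM. Col6a3, whose chain gives rise to endotrophin, was lower at 140.3 and 204 TPM against 129 and 96.5 TPM. Col8a1, a short-chain collagen of vessels, measured 5.62 and 7.05 TPM against 22.3 and 10.1 TPM, and Col16a1 measured 60.2 and 39.4 TPM against 66.2 and 105 TPM, both higher on the high-fat diet.

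Single genes of matrix remodelling were higher on the high-fat diet. Mmp11, a protease known to be made by fibroblasts near fat, measured 5.11 and 4.27 TPM against 17.6 and 23.6 TPM (difference 1.91, SE 0.74, and 1.71 without WT_HFD 2). Mmp2, a gelatinase, measured 120.2 and 99.9 TPM against 184 and 218 TPM, and its inhibitor Timp2 187 and 159 TPM against 248 and 280.4 TPM. Ctgf, a target of TGF beta and of YAP, measured 14.3 and 11.1 TPM against 38.7 and 48.1 TPM (difference 1.70, SE 0.56). All 4 genes were separated, and their null differences were -0.32, -0.21, -0.20 and -0.26. Each had been picked from its list for a small p in wild type. That choice favoured separation in wild type and weaker differences in null pads. Thbs2, a thrombospondin, measured 36.4 and 67.3 TPM against 109 and 264 TPM and Tgfbi, a matrix adhesion protein, 40.6 and 30.2 TPM against 58.6 and 79.1 TPM. Eln, elastin, measured 5.42 and 4.98 TPM against 9.09 and 24.7 TPM with most of the excess in WT_HFD 2, whereas Fbln2, a fibulin, was even at 58.0 and 57.3 TPM against 81.9 and 79.3 TPM. Dpt, dermatopontin of the fat fibroblasts, measured 394 and 441 TPM against 659 and 610.1 TPM.

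Of 23 protease, inhibitor and crosslinking genes 8 were separated higher and 1 lower, and of 23 matrix glycoprotein genes 9 and 2, against 35.1% and 11.8% of all genes. After median-of-ratios scaling these counts were 6 and 4, and 5 and 4, against 22.4% and 21.9% of all genes. Fap itself overlapped between the diets, at 45.4 and 39.2 TPM against 68.8 and 37.7 TPM (difference 0.27, SE 0.33). Its high value came from WT_HFD 1, and without that library the difference was -0.16.

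Mammary epithelial genes lay in both directions. Of 18 tested luminal markers 6 were separated higher and 3 lower, against 35.1% and 11.8% of all genes, and their median of 0.38 turned to -0.13 without WT_LFD 2. Pan-epithelial Krt8 overlapped, at 129.8 and 61.7 TPM against 103 and 109.6 TPM, with WT_LFD 2 the lowest library. Of the secretory lineage genes, Elf5 and Csn3 were higher. Elf5, the factor of alveolar progenitors, measured 29.9 and 17.2 TPM against 82.4 and 72.2 TPM (difference 1.72, SE 0.56), and Csn3, kappa casein, 223 and 63.1 TPM against 497 and 391 TPM. Of the hormone-sensing lineage genes, Pgr and Areg were lower. Of these genes all but Pgr were picked after their values were seen. Other listed members of these lineages are not given here, so no direction of a lineage is shown. Pgr, the progesterone receptor, measured 18.5 and 13.9 TPM against 3.16 and 4.47 TPM (difference -1.84, SE 0.54), and Areg, the growth factor that estrogen induces, 26.4 and 35.5 TPM against 1.95 and 16.8 TPM. Without WT_HFD 2 these differences were 1.81 for Elf5, 2.05 for Csn3, -2.03 for Pgr and -3.42 for Areg. In null pads Elf5 differed by -1.34 and Csn3 by -2.12, and the interaction of Elf5 was 3.06 (SE 0.72, adjusted p = 0.911, limma), which did not pass. Epcam, an adhesion protein of all epithelium, was nearly level in 3 libraries and low in WT_LFD 2, at 103 and 44.5 TPM against 104 and 112 TPM. The sources used here do not give the estrous stage of the mice.

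The clock repressors Per2 and Per3 were higher on the high-fat diet. Per2 measured 3.44 and 6.65 TPM against 13.6 and 10.4 TPM, and Per3 13.9 and 17.4 TPM against 34.2 and 23.4 TPM. Ciart, a repressor of the same loop, measured 0.375 and 1.31 TPM against 3.19 and 6.66 TPM, and Tef, an output factor, 37.0 and 60.5 TPM against 88.4 and 66.5 TPM. All 4 were separated, but they had been picked as the members of the clock list with the smallest p in wild type, which favoured this. The time of day of collection is not given in the sources used here. Of 18 clock genes 7 were separated higher and 1 lower, close to the 35.1% and below the 11.8% of all genes, with a median of 0.35 and, without WT_HFD 2, 0.48. After median-of-ratios scaling 3 were separated higher and 2 lower, against 22.4% and 21.9% of all genes, with a median of 0.16. Immediate early genes, which answer to handling and growth signals within minutes, included lower ones, Egr1 at 19.2 and 6.35 TPM against 4.03 and 5.45 TPM and Nr4a1 at 3.62 and 7.33 TPM against 2.19 and 3.17 TPM, among 15 of which 5 were separated lower and 4 higher, against 11.8% and 35.1% of all genes.

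Ddit3, the stress factor CHOP, measured 23.0 and 17.4 TPM against 37.3 and 32.1 TPM and was separated in null pads as well (difference 0.65 beside 0.76). Herpud1, which serves degradation at the endoplasmic reticulum, measured 41.7 and 41.2 TPM against 76.7 and 87.9 TPM. Of 21 stress response genes 9 were separated higher and 1 lower, against 35.1% and 11.8% of all genes. After median-of-ratios scaling 3 and 2 were, against 22.4% and 21.9%, with a median of -0.02. Cell cycle genes were mostly at low levels, such as Cdk1 at 3.11 and 5.42 TPM against 9.47 and 8.37 TPM and Cdc20 at 1.25 and 1.44 TPM against 3.19 and 4.72 TPM, and 11 of 20 were separated higher, against 35.1% of all genes. Their median was 0.41 in wild type, 0.23 without WT_HFD 2, 0.07 with the lymphocyte covariate and -0.72 in null pads. Null_LFD 3 stood apart, with a mean level of 2.96 relative to the wild-type mean, against -0.18 and 0.65 in Null_LFD 1 and 2. The null high-fat libraries lay at -0.18, 0.16 and 1.24, so the null groups overlapped. In the antioxidant and xenobiotic list, Gstt1 (47.9 and 70.0 TPM against 90.5 and 113 TPM), Ephx1 (54.2 and 41.4 TPM against 65.8 and 100.4 TPM) and Aldh1a1 (12.2 and 14.1 TPM against 17.6 and 59.3 TPM), all enzymes of detoxification, were separated higher. The list as a whole lay in both directions. Of its 26 genes 6 were separated higher and 4 lower, against 35.1% and 11.8% of all genes. After median-of-ratios scaling 4 and 7 were, against 22.4% and 21.9%, with a median of -0.05. Car2, a carbonic anhydrase, was higher at 9.54 and 7.2 TPM against 13 and 13.9 TPM and Car13 lower at 26.9 and 29.2 TPM against 21.7 and 16.3 TPM.

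Ribosomal protein genes were higher in 28 of 29 members, 25 of them separated, against 35.1% of all genes. Their median of 0.53 moved to 0.28 without WT_HFD 2 and to 0.066 with the lymphocyte level as a covariate. Rpl5 measured 784 and 1081 TPM against 1958 and 2436 TPM, Rps2 1082 and 421 TPM against 1350.0 and 1678 TPM and Rpl11 953 and 872 TPM against 1289 and 1763 TPM. Ribosomal genes have many near-identical pseudogene copies among which reads can be split, so single values are uncertain.

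Outside the lists, the rule for named genes picked those with the widest gap between the nearest libraries of the diets. Lower were Lctl, a klotho-family protein of fat and lens (116 and 64.5 TPM against 24.8 and 9.83 TPM, difference -2.39, SE 0.44), Hephl1, a copper oxidase (16.2 and 2.14 TPM against 0.298 and 0.135 TPM), Golga7b (11.7 and 4.54 TPM against 1.17 and 0.38 TPM) and Sftpd, a collectin of lung lining (15.1 and 10.3 TPM against 0.437 and 3.65 TPM). Lctl was below its low-fat level in null pads too, at 93.9, 91.0 and 94.9 TPM against 64.3, 43.4 and 35.0 TPM. Gbp4, an interferon-induced GTPase, measured 4.42 and 6.67 TPM on the low-fat diet, 0.234 TPM in WT_HFD 1 and close to 0 in WT_HFD 2. Higher were Lao1, an amino acid oxidase of milk (0.709 and 0.191 TPM against 18.9 and 6.86 TPM), and the lymphocyte genes Nkg7 and Trav13-2, listed at 0 in both low-fat libraries and at 4.47 and 9.17 TPM and 4.45 and 7.69 TPM on the high-fat diet. Hax1, a mitochondrial survival protein, was nearly absent from both low-fat libraries (0.00141 and 0.0689 TPM against 15.8 and 3.54 TPM), but measured 10.4 to 27.1 TPM in the 6 null libraries. Since Hax1 serves nearly every cell, these low listings may be failed estimates, and no fold is given. Lao1, Nkg7, Trav13-2 and Hax1 passed the filter through the high-fat libraries alone, so they could only lie higher there. Hephl1 and Gbp4 passed it through the low-fat libraries alone, so their direction was fixed as well. Ppp1r10, a nuclear regulator of protein phosphatase 1, had the lowest unadjusted p among genes annotated as protein coding, at 25.3 and 28.8 TPM against 67.9 and 70.6 TPM (difference 1.33, SE 0.19, adjusted p = 0.356, limma), and was picked after its value was seen.

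**Figure D5:**
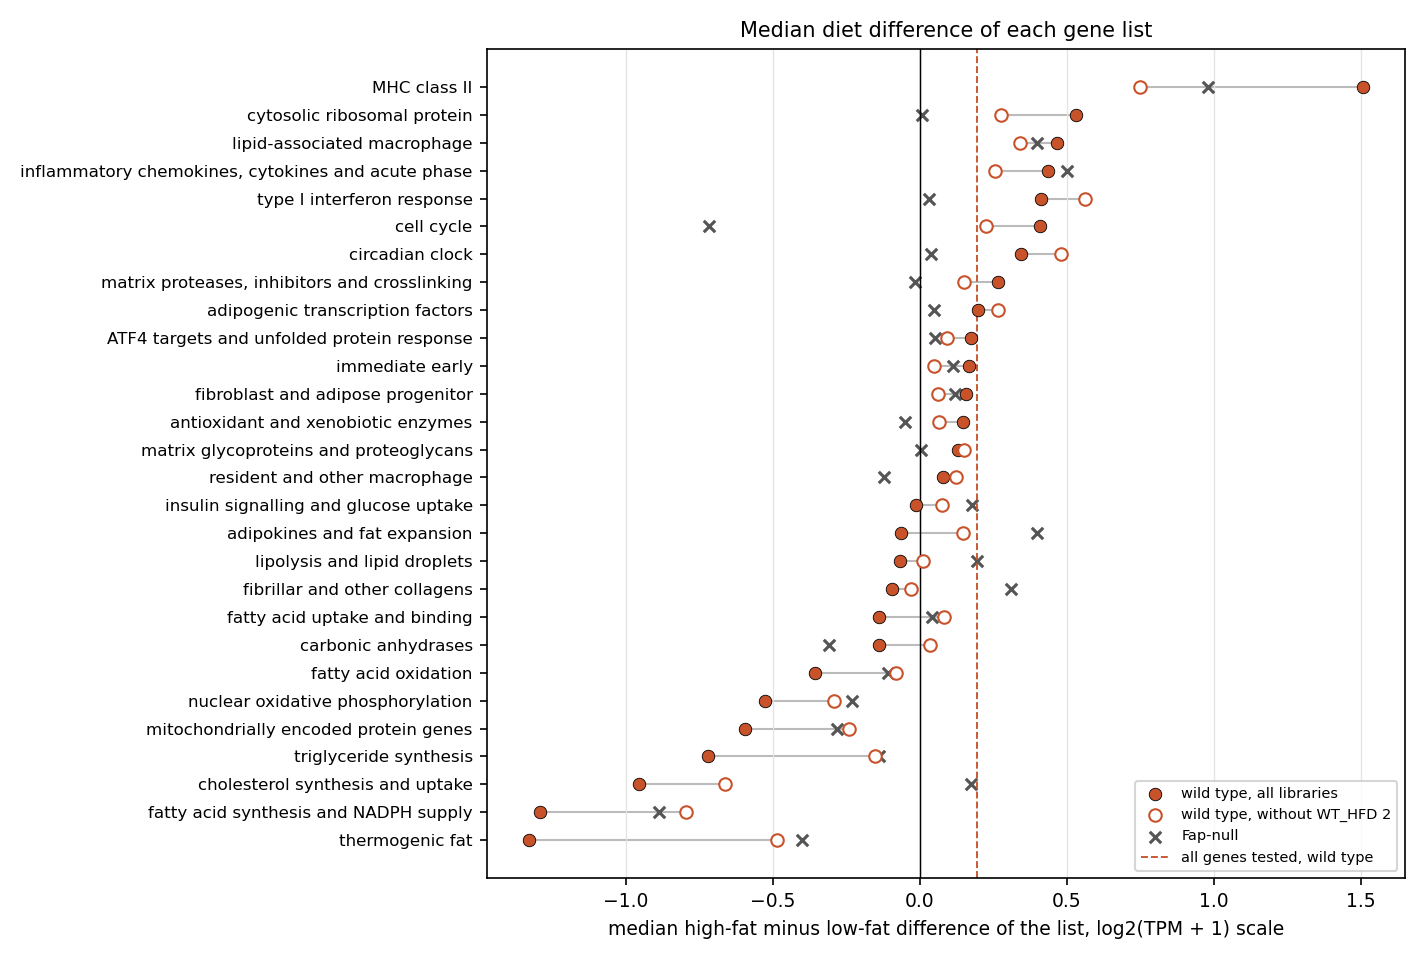
Median high-fat minus low-fat difference of each of the 28 gene lists on the log2(TPM + 1) scale. Filled circles use all libraries, open circles leave out WT_HFD 2, crosses give Fap-null pads, and the dashed line is the median of all genes tested in wild type. Without WT_HFD 2 cholesterol synthesis moves from -0.96 to -0.66, and the thermogenic, triglyceride and MHC class II lists also move towards 0.

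Across the 28 lists, the medians that lay farthest from that of all genes in wild type were those of thermogenic, fatty acid synthesis, cholesterol synthesis and MHC class II genes. Only the cholesterol list, at -0.96 in wild type and 0.17 in null pads, had medians of opposite sign among these 4, and this difference between genotypes was not shown by any single gene in the interaction test.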

How the data were processed

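RNA from 10 mouse fat pads had been flash frozen, extracted, depleted of ribosomal RNA, prepared with a stranded total RNA kit and sequenced, per the labels' protocols. The authors deposited 1 table of log2(TPM + 1) values, with a gene symbol and 1 column for each library. That unit was read from the values, since the libraries sum to 946103 to 954463 once the log is undone. The submitters' processing notes name kallisto, limma and GRCm38, without versions or roles. TPM keeps no sequencing depth, so depth is unknown and no counting interval can be given. Exact zeros can be failed estimates: Ndufa4, Rps12 and mt-Atp8 were listed at 0 in all 4 wild-type libraries.

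The filter on low values asked for 1 TPM or more in 2 or more of the 4 wild-type libraries. A gene that passed it through the libraries of 1 diet alone could only be separated with that diet higher. The nameless line of the table, 0.00544% to 0.0108% of all TPM, was left out. The deposited values were fitted with limma 3.58.1 in R 4.3.3 with a mean for each of the 4 groups over all 10 libraries (6 residual degrees of freedom), a variance trend and Benjamini-Hochberg adjustment over all genes tested. Differences are on the log2(TPM + 1) scale, which understates the change of low genes, and folds are ratios of mean TPM. Tables and figures were made with Python 3.11.15, pandas 2.3.3, numpy 2.4.6 and matplotlib 3.10.9, and the fit was tested on simulated data. Positions come from GENCODE M21 (GRCm38) and upstream sequences from RefSeq.

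The comparison, its members and the gene lists were chosen with earlier results of these data known. The genes named are any called gene, the 10 with the widest gap between diets in each direction, up to 4 of each list by smallest p, and 20 chosen by function. Of the 128 genes described, 116 come from this rule, and 12 were picked after their values were seen (Cyp51, Idi1, Sqle, Sc5d, Srebf2, Srebf1, Elf5, Csn3, Areg, Epcam, Krt8, Ppp1r10). P-values measure the spread between these libraries. Alternatives covered the filter, the pseudocount, the scaling, the variance model, a lymphocyte covariate and leaving out each library. Some genes are not reported here.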

Additional observations from a re-analysis of the deposited data

Results flagged for a closer look

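In 4 of the 128 genes described, the diets were separated in both genotypes but in opposite directions. Of all genes, 35.1% were separated higher and 11.8% lower in wild type, and 6.73% and 4.46% in null pads. The share of all genes separated in opposite directions was not counted, so these 4 are not shown to exceed it. None of the 4 passed the interaction test of limma after Benjamini-Hochberg adjustment.

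Hmgcs1, the HMG-CoA synthase, was lower on the high-fat diet in wild type and higher in null pads, where it measured 158, 122 and 77.8 TPM on the low-fat and 179.9, 293 and 180.1 TPM on the high-fat diet. The wild-type difference minus the null difference was -1.83 (SE 0.56, adjusted p = 1).

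Car2, a carbonic anhydrase, was higher in wild type and lower in null pads (23.6, 39.1 and 39.8 TPM against 11.9, 8.91 and 16.0 TPM), with a difference of 2.04 between genotypes (SE 0.44, adjusted p = 0.868).

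Csn3, kappa casein, measured 1306, 1059 and 358 TPM in null low-fat pads and 353, 137 and 124 TPM in null high-fat pads, and the genotypes differed by 4.00 (SE 0.99, adjusted p = 0.911). Epcam, which all epithelium carries, measured 106, 174 and 175 TPM against 63.3, 75.9 and 22.6 TPM in null pads, with a difference of 2.28 (SE 0.73, adjusted p = 1). Luminal markers as a list had a median of 0.38 in wild type and -1.14 in null pads, and the wild-type median turned to -0.13 without WT_LFD 2, the wild-type library lowest in Epcam and Csn3. Relative to the wild-type mean, the luminal level in null pads was 0.42, 1.15 and 0.57 on the low-fat diet. On the high-fat diet it was 0.01, -0.09 and -1.63, lowest in the lymph node-rich Null_HFD 3. The part of the amount of epithelium in the differences of Csn3, Epcam and the luminal list was not tested.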

How the results depend on the processing

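The 128 genes described gave 2806 values over 22 alternatives, of which 2777 kept direction and side of the threshold, 28 turned direction and 1 passed the threshold. The calls in wild type numbered 0, but 4 without a filter, 2 without the variance trend, and 0 to 2 with a library left out (1 without WT_LFD 2, 2 without WT_HFD 1). The interaction gave 3 calls without a filter and 0 to 2 with a library left out. The replicate block left 0 calls in wild type and 0 in the interaction. The deviations of same-numbered libraries correlated between -0.347 (WT_HFD 2 with Null_HFD 2) and 0.426 (WT_HFD 1 with Null_HFD 1), and at 0.0424 for the wild-type pairs, so not every pair was over 0.1 and the numbers were not taken as pairing. Genes 2-fold lower and separated numbered 219, but 133 at a mean of at least 5 TPM, 346 with median-of-ratios scaling and 257 to 656 with a library left out, and 2-fold higher ones 817 and 617 to 2000 with a library left out, since a group of 1 library separates more easily.

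With a library left out, list medians ranged from -1.24 to -0.47 for cholesterol synthesis, -2.12 to -0.62 for fatty acid synthesis, 0.34 to 0.66 for lipid-associated macrophages, 0.75 to 1.86 for MHC class II, -0.76 to -0.29 for oxidative phosphorylation and 0.28 to 0.78 for ribosomal proteins. Without both lymph node-rich libraries the ribosomal median was 0.28 and the MHC class II median 0.75. A lymphocyte covariate gave 0.25 for lipid-associated macrophages, 0.066 for ribosomal proteins, 0.36 for MHC class II and -0.23 for oxidative phosphorylation. Median-of-ratios scaling gave 0.28 for lipid-associated macrophages. The causes were not tested.

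Directions turned for 12 genes, all with overlapping groups. With a library left out, the differences ranged from -0.67 to 0.96 for Lep, -3.42 to 0.86 for Acly (0.86 without WT_LFD 1), -0.77 to 0.16 for Adipoq, -0.15 to 0.10 for Pparg, -0.14 to 0.92 for Plin1, -0.28 to 0.78 for Krt8, -0.25 to 0.33 for Srebf1, -0.29 to 0.24 for Srebf2, -0.16 to 0.69 for Fap, -0.17 to 3.74 for Sfrp5, -1.04 to 0.058 for Mest and -0.68 to 0.17 for Col1a1. Without WT_LFD 1 Lep was -0.049 and Srebf2 0.19. Without WT_LFD 2 Adipoq was 0.12 and Srebf1 -0.085. Without both lymph node-rich libraries, as without WT_HFD 2, Sfrp5 was -0.17, Lep -0.67, Adipoq 0.16, Mest 0.058 and Col1a1 0.17. Median-of-ratios scaling gave -0.062 for Lep and -0.17 for Srebf1, and leaving out mitochondrial genes -0.032 for Srebf1. With the covariate Lep was -0.11, Adipoq 0.43, Pparg 0.42 and Col1a1 0.23. mt-Nd3 passed without WT_HFD 1 (-9.06, adjusted p = 0.0169, limma), against a library listed at 0. Depth is unknown, so what it limits cannot be stated.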

Other observations

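Markers of other cell types that a fat pad holds varied between the wild-type libraries. All 6 erythroid markers were lower in the mean on the high-fat diet, 3 of them separated against 11.8% of all genes, with a median of -0.51 on the log2(TPM + 1) scale. Without WT_HFD 2 it was -0.16, and with the lymphocyte level as a covariate -0.09. The 13 endothelial markers had a median of 0.21, close to the 0.20 of all genes. Of them 5 were separated higher and none lower, against 35.1% and 11.8% of all genes. After median-of-ratios scaling 2 and 3 were, against 22.4% and 21.9%. Skeletal muscle markers summed to 4166 and 2855 TPM on the low-fat diet and to 4196 and 377 TPM on the high-fat diet. Their median was -1.59 with all libraries and 0.17 without WT_HFD 2.

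Markers of fibroblasts and adipose progenitors had a median of 0.16 over 21 genes, with 5 separated higher and 3 lower, against 35.1% and 11.8% of all genes. It was 0.06 without WT_HFD 2 and 0.37 without WT_LFD 1. Basal mammary markers had a median of 0.21 in wild type and -0.75 in null pads, and the wild-type value turned to -0.20 without WT_LFD 2. In wild type, basal markers summed to 339 and 178 TPM on the low-fat diet and 227 and 345 TPM on the high-fat diet, so the groups overlapped. Relative to the wild-type mean, their level in null pads was 0.33, 0.94 and 0.75 on the low-fat diet. On the high-fat diet it was 0.10, 0.66 and -0.77, lowest in the lymph node-rich Null_HFD 3, with overlap.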
